A study of Rattus norvegicus with 8 samples.

Results

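The integrin and laminin genes of the rat kidney were examined in HSRA-S and HSRA-C animals at 4 weeks of age. Members were all genes with an integrin alpha or beta chain symbol or a laminin alpha, beta or gamma chain symbol that had a probe set annotated to that symbol alone, with 1 integrin alpha gene left out and the brightest probe set taken per gene. They numbered 32 genes, 22 integrins and 10 laminins, out of 17245 genes measured in this way. Of these, 30 passed the filter that removed the dimmest 20% of genes, 20 integrins and 10 laminins, and entered the test among 13796 genes. Itgam and Itgb7, both leukocyte integrin chains, lay below the filter. The only probe set of Itga9 is shared with 2 other genes, and Itga9 was not analysed here.

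The HSRA rat is a model of unilateral renal agenesis derived from a heterogeneous stock, and this genotype label is shared by all 8 animals. The 4 HSRA-S samples were congenital solitary kidneys, and the 4 HSRA-C samples were kidneys of animals with both kidneys, which served as the control. Whole kidney RNA of each was measured on its own Rat Gene 1.1 ST array, and the values are RMA intensities, which were put on the log2 scale. The labels give neither sex nor litter, nor whether a control sample held more than 1 kidney.

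Laminins are secreted proteins built from an alpha, a beta and a gamma chain. They polymerise into the sheet on which epithelia, endothelia and muscle cells sit, and this basement membrane is tied together by nidogen, perlecan, agrin and type IV collagen. Integrins are cell surface receptors built from an alpha and a beta chain, and they bind laminins, collagens, RGD-containing proteins such as fibronectin and vitronectin, or counter-receptors on other cells. In the kidney, laminins and their integrins hold podocytes to the glomerular filter and tubule cells to the tubular basement membrane, and they take part in branching of the ureteric bud.

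Lama5, Lamb1 and Lamc1 encode the chains of the laminin found widely in mature epithelial basement membranes, and Lamc3 encodes a further gamma chain. The 250 bases upstream of their start sites are shown because Lama5 and Lamc3 were the laminin genes at an unadjusted p under 0.05 in the comparison below, and Lamb1 and Lamc1 are the partner chains of Lama5. The sequences are RefSeq's on assembly GRCr8, read in the direction of the gene, at chr3:187695975-187696224 on the minus strand for Lama5, chr6:53562846-53563095 on the plus strand for Lamb1, chr13:68051987-68052236 on the minus strand for Lamc1 and chr3:35562739-35562988 on the plus strand for Lamc3. Capitals mark each GC box searched for, GGGCGG on either strand.
Lama5: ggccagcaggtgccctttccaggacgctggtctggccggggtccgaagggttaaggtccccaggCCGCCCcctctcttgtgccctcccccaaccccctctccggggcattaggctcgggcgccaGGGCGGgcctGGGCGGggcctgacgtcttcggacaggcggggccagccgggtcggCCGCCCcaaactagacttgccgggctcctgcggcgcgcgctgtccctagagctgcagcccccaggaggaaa
Lamb1: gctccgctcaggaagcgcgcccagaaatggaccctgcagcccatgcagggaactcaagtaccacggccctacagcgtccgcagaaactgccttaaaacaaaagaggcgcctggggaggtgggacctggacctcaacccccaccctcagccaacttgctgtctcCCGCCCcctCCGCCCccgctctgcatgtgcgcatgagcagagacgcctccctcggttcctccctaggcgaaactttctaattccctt
Lamc1: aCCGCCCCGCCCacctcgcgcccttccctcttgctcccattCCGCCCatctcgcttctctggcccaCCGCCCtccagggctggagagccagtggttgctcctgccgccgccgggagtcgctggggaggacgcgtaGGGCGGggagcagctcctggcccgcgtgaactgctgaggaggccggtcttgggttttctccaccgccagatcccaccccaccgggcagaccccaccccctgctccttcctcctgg
Lamc3: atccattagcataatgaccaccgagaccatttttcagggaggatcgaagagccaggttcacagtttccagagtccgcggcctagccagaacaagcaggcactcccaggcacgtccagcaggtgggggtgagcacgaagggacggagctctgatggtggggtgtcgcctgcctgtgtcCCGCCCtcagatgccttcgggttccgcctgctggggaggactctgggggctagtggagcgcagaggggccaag
The Lama5 window held 4 GC boxes, that of Lamb1 2, that of Lamc1 5 and that of Lamc3 1. A GC box was present in 13 of the 25 member genes with a window (52%) and in 32.4% of 27457 windows of all genes. Member windows were also richer in G and C, with a median of 58% against 52% in all windows. They held a median of 10 CG dinucleotides, against 6. CCAAT, searched on both strands, was found in 5 of the 25 (20%) and in 34.3% of all windows, and TATAAA in 2 of the 25 (8%) and in 13.1% of all windows. None of the 4 windows printed held either of these other letters, and the matches describe the sequence only. No window was available for Itga6 or Lamb2.

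Across the 30 tested members the differences between solitary and control kidneys were small, and none passed limma's test at an adjusted p under 0.05, where 0% of all genes passed. The difference of log2 levels, HSRA-S minus HSRA-C, ran from -0.35 for Itga2 to 0.32 for Itga6. At an unadjusted p under 0.05 there were 3 of 30 members, or 10%, against 12.1% of all genes tested, so the share of members was not above the background. Higher in HSRA-S was 1 member, Itga6, where the background was 7.36%, and lower were 2 members, Lama5 and Lamc3, where the background was 4.69%. The groups did not overlap in 2 of 30 members, Itga6 and Lama5, which is 6.67% against 6.29% of all genes (4.12% higher and 2.17% lower in HSRA-S). The smallest adjusted p among the members was 0.331, for Itga6.

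Laminin genes lay mostly below 0 and integrin genes on both sides of it. Of the 10 laminin genes 9 had a difference below 0, with a median of -0.17, whereas 44.5% of all genes were below 0 and their median was 0.015. The 20 integrin genes were split into 11 above 0 and 9 below, with a median of 0.0073. These counts describe the lists and carry no test. The mean log2 level over the 10 laminin genes was 6.94, 6.93, 7.0 and 6.96 in HSRA-S replicates 1 to 4, against 6.93, 7.04, 7.19 and 7.20 in HSRA-C replicates 1 to 4. The highest control levels were thus those of replicates 3 and 4. Control replicate 2 also lay above every HSRA-S sample, by less, while control replicate 1 lay with the HSRA-S samples. In 7 of 10 laminin genes and 5 of 20 integrin genes, HSRA-C replicates 3 and 4 were the highest samples of the 8. The share of all genes with this order is not given, so these 2 counts have no background.

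**Figure D1:**
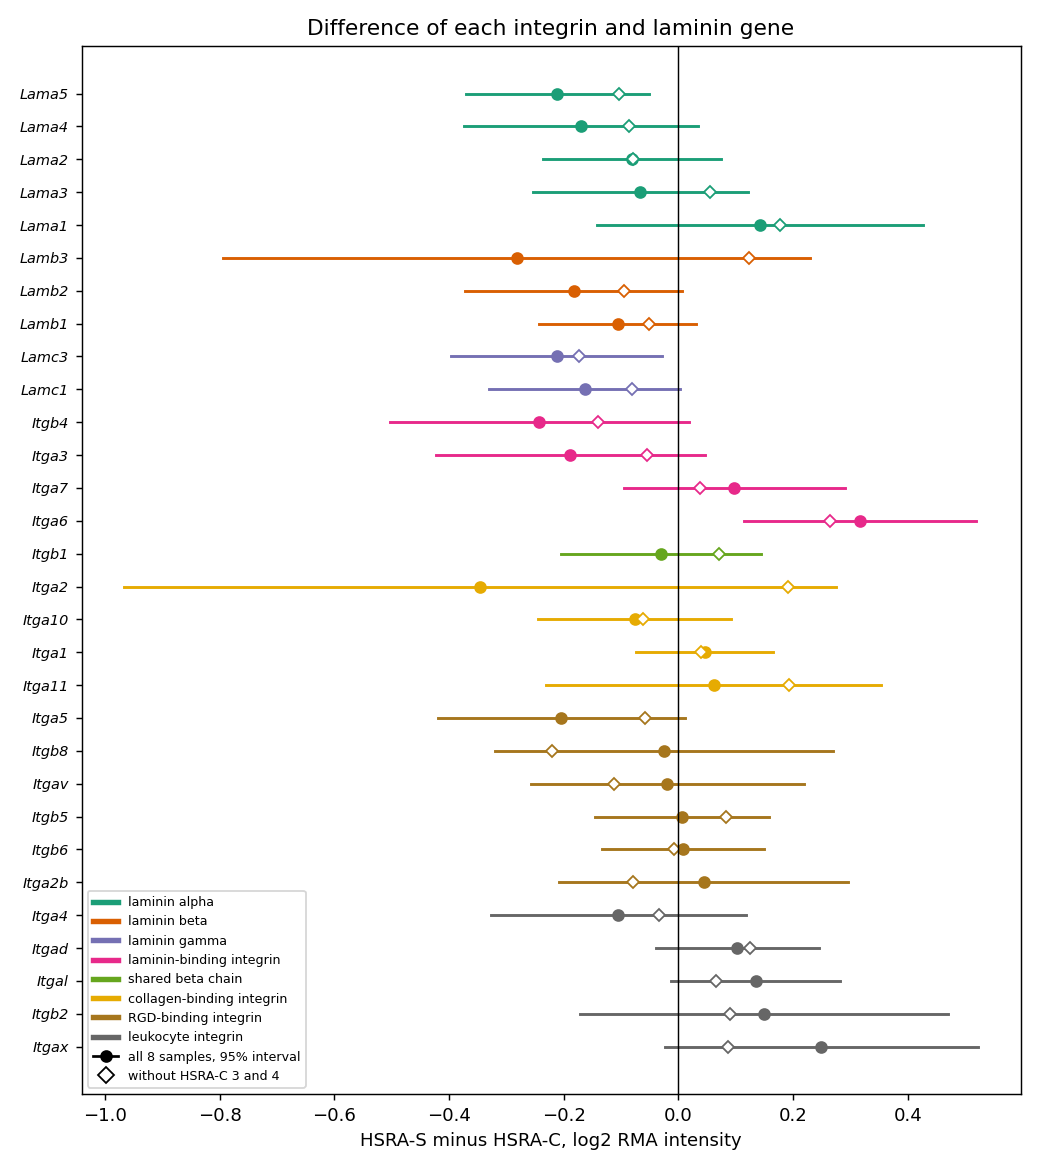
The horizontal axis gives the log2 difference HSRA-S minus HSRA-C and each line of the vertical axis is a gene, ordered by role and coloured by it; filled circles with bars are the difference over all 8 samples with its 95% interval, and open diamonds are the difference without HSRA-C replicates 3 and 4. Of the laminin genes 9 of 10 circles lie left of 0, and Itga6, Lama5 and Lamc3 have intervals that leave out 0.

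HSRA-C replicates 3 and 4 were the highest samples in 6 of 10 collecting duct and medulla markers, and HSRA-S replicate 4 was the lowest in 7 of 10. The shares of all genes with these orders are not given. Slc14a2, which carries urea across collecting duct cells of the inner medulla, had log2 levels of 6.85, 7.04, 7.22 and 4.44 in HSRA-S replicates 1 to 4, against 5.99, 6.44, 8.86 and 9.0 in HSRA-C replicates 1 to 4. Aqp4, a water channel of collecting duct cells, was at 6.25, 6.55, 6.78 and 5.22 in HSRA-S and at 5.45, 6.79, 7.31 and 7.57 in HSRA-C. Control replicates 3 and 4 were the highest of all samples for both genes, and HSRA-S replicate 4 was the lowest. Of 11 collecting duct and medulla markers 10 were tested, all 10 with a difference below 0, against 44.5% of all genes. Their mean log2 level ran from 7.21 to 7.94 in HSRA-S and from 7.61 to 8.55 in HSRA-C. At an unadjusted p under 0.05, 1 of these 10 was lower, against 4.69% of all genes. Their median difference was -0.26 and became -0.024 without HSRA-C replicates 3 and 4. Then 6 of 10 were below 0, against 44.8% of all genes. Of 12 proximal tubule markers 11 were tested, with mean levels of 10.35 to 10.74 in HSRA-S and 10.18 to 10.40 in HSRA-C. In RNA of whole kidneys, fewer cells of a type and less RNA per cell cannot be told apart. Many results below are therefore also given without HSRA-C replicates 3 and 4, and without HSRA-S replicate 4 where that sample moved them. Where stated, they are given with a covariate. It is the mean of the proximal tubule markers minus that of the collecting duct and medulla markers in each sample.

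With HSRA-C replicates 3 and 4 left out, 0 of 30 members were at an unadjusted p under 0.05, against 4.85% of all genes, and 0 at an adjusted p. The groups of 3 members, Itga6, Lama5 and Itgb5, did not overlap among these 6 samples, or 10% against 13.9% of all genes. For Itga6 and Lama5 this was fixed in advance, since their groups did not overlap among all samples. The laminin genes below 0 were then 7 of 10, with a median of -0.080, against 44.8% of all genes and a median of 0.014. A rise of these differences was also fixed in advance for many laminin genes. The 2 controls left out were the highest samples in 7 of 10 of them. With HSRA-S replicate 4 left out as well, 0 of 30 were at an unadjusted p under 0.05, against 7.26% of all genes. Leaving out HSRA-C replicate 1 alone gave 12 members at an unadjusted p under 0.05, 6 laminins and 6 integrins, where the background was 14.1% of all genes. There were 5 members without HSRA-S replicate 1, against 9.52% of all genes, and 5 without HSRA-S replicate 3 or 4, against 12.3% in both. Without HSRA-C replicate 4 there were 2, Itga6 and Lama5, against 7.37%. Itga6 and Lama5 were at an unadjusted p under 0.05 in each of the 8 fits that left out 1 sample.

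**Figure D2:**
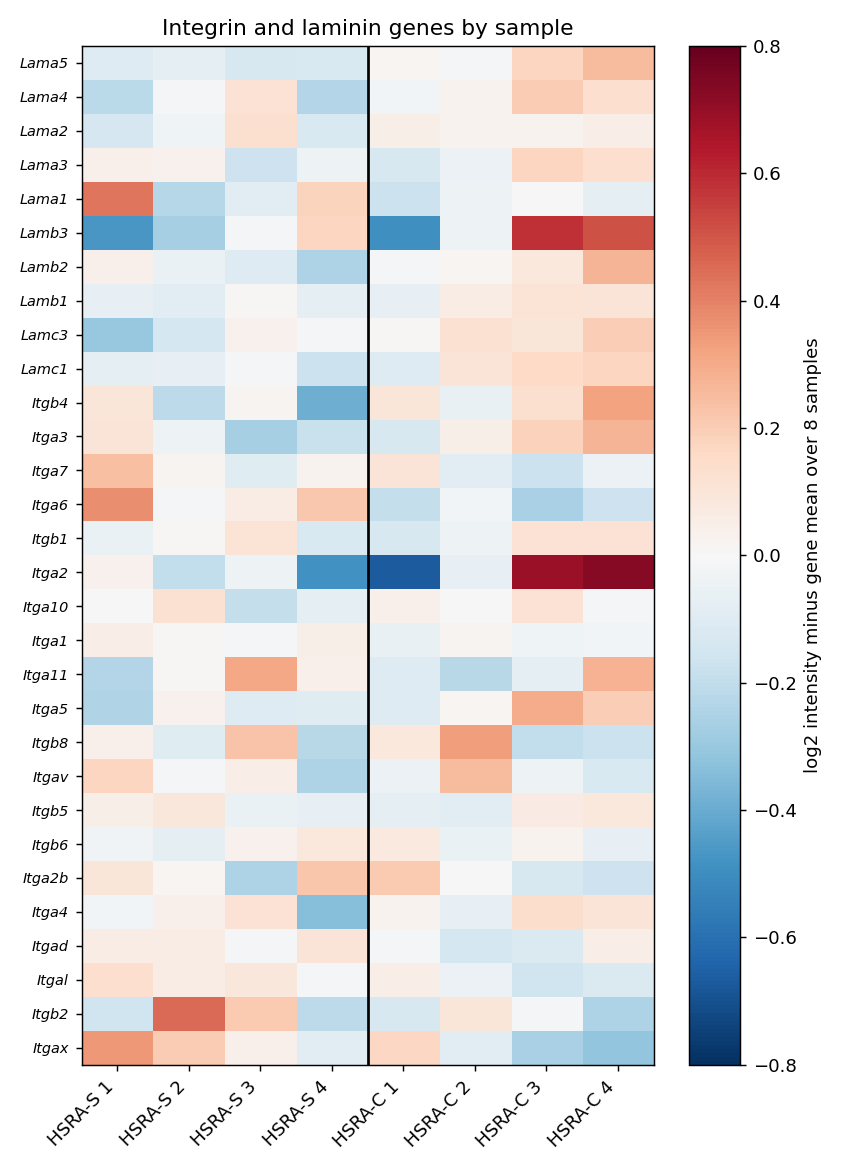
Each row is a gene and each column a kidney sample, HSRA-S left of the line and HSRA-C right of it; colour gives the log2 intensity minus that gene's mean over the 8 samples. Itga2 and Lamb3 have their highest levels in HSRA-C replicates 3 and 4, and these samples are the highest pair in 7 of the 10 laminin rows.

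Among the laminin alpha chains, Lama5 was the clearest. Lama5, the alpha chain of the laminins of mature tubular and glomerular basement membranes, had log2 levels of 7.58, 7.61, 7.55 and 7.56 in HSRA-S replicates 1 to 4, against 7.69, 7.66, 7.85 and 7.93 in HSRA-C replicates 1 to 4. All 4 solitary kidneys were below all 4 control kidneys, and the solitary kidneys lay close together while the controls were spread. Lama5 averaged 7.57 ± 0.025 in solitary kidneys, against 7.78 ± 0.13 in control kidneys (SD, n = 4 per group), a log2 difference of -0.21 (SE 0.071, 95% interval from -0.37 to -0.052), or a 1.16-fold lower level in HSRA-S. The unadjusted p of limma was 0.0145 and the adjusted p 0.346. Leaving out HSRA-C replicates 3 and 4 gave -0.10 (limma unadjusted p = 0.174), and with the covariate it was -0.14. Without HSRA-S replicate 4 alone Lama5 was at -0.21, and without all 3 samples at -0.098.

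Lama4, the alpha chain of endothelial basement membranes, had a difference of -0.17 (SE 0.092), with levels of 6.44 to 6.80 in HSRA-S and 6.66 to 6.88 in HSRA-C, and was -0.087 without HSRA-C replicates 3 and 4. The endothelial markers, 9 of 12 tested, had mean log2 levels of 7.82 to 7.99 in HSRA-S and 8.0 to 8.11 in HSRA-C. Of these 9, 8 were below 0, against 44.5% of all genes. At an unadjusted p under 0.05, 3 of 9 were lower, against 4.69%, and 0 passed at an adjusted p. Without HSRA-C replicates 3 and 4, 6 of 9 were below 0, against 44.8%, and 0 were lower at that p, against 2.17%. The part of endothelial RNA in the difference of Lama4 was not tested. Lama2, the alpha chain of muscle and mesenchymal basement membranes, was at -0.081 (SE 0.069) on its brighter probe set and at -0.14 (SE 0.083) on the other. Leaving out single samples put the brighter Lama2 probe set between -0.14, without HSRA-S replicate 3, and -0.049, without HSRA-S replicate 1. Lama3, an epithelial alpha chain of anchoring laminins, was at -0.066 (SE 0.084) and at 0.056 without the 2 control samples. Lama1, the alpha chain of embryonic basement membranes that in mice is kept in the proximal tubule, was the only laminin gene above 0, at 0.14 (SE 0.13). HSRA-S replicate 1 had the highest Lama1 level, 6.69, against 6.03 to 6.43 in the other HSRA-S samples and 6.08 to 6.26 in HSRA-C, and without it the difference was 0.023. The Lama1 difference was 0.18 without HSRA-C replicates 3 and 4.

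The beta and gamma chains lay on the side of Lama5. Lamc3, a gamma chain less widely expressed than Lamc1, had log2 levels of 7.04, 7.20, 7.38 and 7.33 in HSRA-S replicates 1 to 4, against 7.36, 7.47, 7.44 and 7.54 in HSRA-C. The groups touched, since HSRA-S replicate 3 was above HSRA-C replicate 1. Lamc3 averaged 7.24 ± 0.15 in solitary kidneys, against 7.45 ± 0.075 in control kidneys (SD, n = 4 per group), a difference of -0.21 (SE 0.082, 95% interval from -0.40 to -0.028, limma unadjusted p = 0.0278, adjusted p = 0.373). It was -0.17 without HSRA-C replicates 3 and 4, and with the covariate -0.20. The unadjusted p of Lamc3 was no longer under 0.05 on leaving out HSRA-S replicate 1 (0.0737), HSRA-S replicate 2 (0.0626), HSRA-C replicate 2 (0.0549) or HSRA-C replicate 4 (0.0740). A second probe set that carries Lamc3 together with another gene was not used.

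Lamc1, the gamma chain shared by most laminins, was at 8.36, 8.37, 8.43 and 8.27 in HSRA-S, against 8.34, 8.54, 8.60 and 8.61 in HSRA-C. Control replicate 1 lay among the solitary kidneys and the other 3 controls above them. The difference was -0.16 (SE 0.075, 95% interval from -0.33 to 0.0027), and it was -0.081 without HSRA-C replicates 3 and 4 and -0.22 without HSRA-C replicate 1. Lamb2, the beta chain of the glomerular basement membrane, was at 8.20, 8.10, 8.05 and 7.91 in HSRA-S, against 8.15, 8.17, 8.24 and 8.43 in HSRA-C. Its difference of -0.18 (SE 0.085, 95% interval from -0.37 to 0.0065) became -0.094 without HSRA-C replicates 3 and 4 and -0.066 with the covariate. For Lamb1, the beta chain of most other basement membranes, the difference was -0.11 (SE 0.061), with levels of 8.35 to 8.44 in HSRA-S and 8.37 to 8.54 in HSRA-C, and without HSRA-C replicates 3 and 4 it was -0.051.

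**Figure D3:**
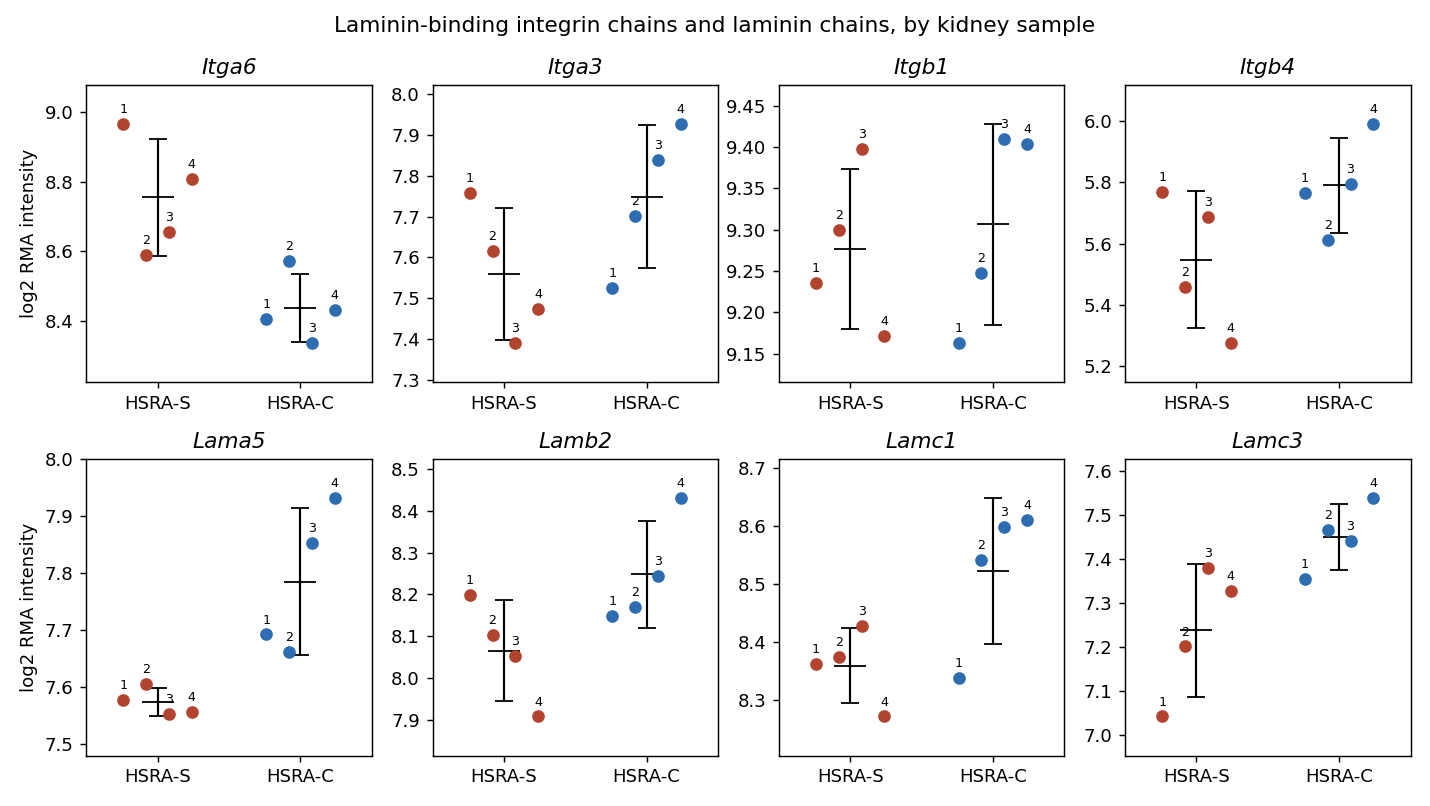
Each panel shows a gene, with the log2 RMA intensity on the vertical axis and the 4 HSRA-S and 4 HSRA-C samples as points numbered by replicate; horizontal marks are group means and bars are 1 SD. The axes differ between panels and do not start at 0. Itga6 is higher in every HSRA-S sample than in every HSRA-C sample and Lama5 is lower, while the groups of the other 6 chains overlap.

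The laminin-binding integrin chains lay on both sides of 0. Itga6, the alpha chain that pairs with Itgb1 or with Itgb4, had log2 levels of 8.97, 8.59, 8.66 and 8.81 in HSRA-S replicates 1 to 4, against 8.41, 8.57, 8.34 and 8.43 in HSRA-C replicates 1 to 4. Every solitary kidney was above every control kidney, with HSRA-S replicate 2 and HSRA-C replicate 2 next to each other. Itga6 averaged 8.75 ± 0.17 in solitary kidneys, against 8.44 ± 0.099 in control kidneys (SD, n = 4 per group), a log2 difference of 0.32 (SE 0.091, 95% interval from 0.11 to 0.52), or 1.25-fold. The limma unadjusted p was 0.00584 and the adjusted p 0.331. Leaving out HSRA-C replicates 3 and 4 gave 0.26 for Itga6 (limma unadjusted p = 0.0548), and with the covariate it was 0.27. Leaving out single samples kept it between 0.25, without HSRA-S replicate 1, and 0.37, without HSRA-S replicate 2. Without HSRA-S replicate 4 it was 0.30, and without this sample and HSRA-C replicates 3 and 4 it was 0.25.

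Itgb4, the beta chain that pairs with Itga6 in hemidesmosomes, was at 5.77, 5.46, 5.69 and 5.28 in HSRA-S, against 5.77, 5.61, 5.80 and 5.99 in HSRA-C. Its difference lay on the other side of 0 from that of Itga6, at -0.24 (SE 0.12, 95% interval from -0.50 to 0.018), and was -0.14 without HSRA-C replicates 3 and 4. Itgb1, the beta chain that most alpha chains share, was at 9.24, 9.30, 9.40 and 9.17 in HSRA-S, against 9.16, 9.25, 9.41 and 9.40 in HSRA-C. The groups overlapped over nearly their whole range, and the 95% interval of the Itgb1 difference ran from -0.21 to 0.14 around -0.030. Itga3, the laminin receptor chain that podocytes need, was at -0.19 (SE 0.11), with 7.39 to 7.76 in HSRA-S and 7.53 to 7.93 in HSRA-C. The difference of Itga3 without HSRA-C replicates 3 and 4 was -0.054. The podocyte markers, 6 of 8 tested, had mean log2 levels of 6.98 to 7.25 in HSRA-S and 7.14 to 7.26 in HSRA-C. Itga7, a laminin receptor chain known from muscle, was at 0.097 (SE 0.086), and on leaving out single samples between 0.033, without HSRA-S replicate 1, and 0.15, without HSRA-C replicate 1. Without HSRA-C replicates 3 and 4 it was at 0.037.

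Of the collagen-binding alpha chains, Itga2 varied most between samples. Itga2, known from epithelia and platelets, had log2 levels of 4.75, 4.52, 4.68 and 4.23 in HSRA-S replicates 1 to 4, against 4.06, 4.65, 5.41 and 5.45 in HSRA-C replicates 1 to 4. The controls held both the lowest and the highest levels, with a range over all samples of 1.39. Lamb3, an epithelial beta chain of anchoring laminins, was at 4.19, 4.40, 4.65 and 4.83 in HSRA-S, against 4.17, 4.62, 5.24 and 5.17 in HSRA-C, a range of 1.08. For both genes HSRA-C replicates 3 and 4 were the highest samples, as they were for Slc14a2 and Aqp4. The lowest sample of Itga2 and Lamb3 was HSRA-C replicate 1, whereas that of Slc14a2 and Aqp4 was HSRA-S replicate 4. In HSRA-S replicate 4, Itga2 had its lowest HSRA-S level, 4.23, and Lamb3 its highest, 4.83. The difference of Itga2 was -0.35 (SE 0.28) and that of Lamb3 -0.28 (SE 0.23), and without the 2 control samples they were 0.19 and 0.12. With the covariate Itga2 was at 0.13 and Lamb3 at -0.11. Without HSRA-C replicate 1 alone, Itga2 was at -0.62 and Lamb3 at -0.49.

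**Figure D4:**
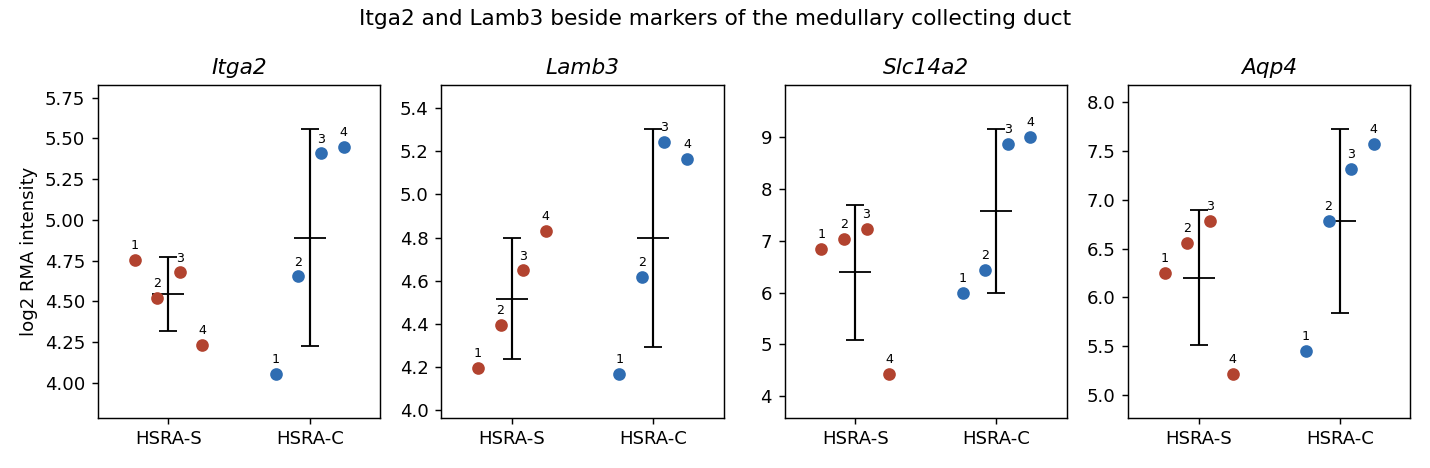
Each panel shows a gene, with the log2 RMA intensity on the vertical axis and the 4 HSRA-S and 4 HSRA-C samples as points numbered by replicate; horizontal marks are group means and bars are 1 SD. The axes differ between panels and do not start at 0. HSRA-C replicates 3 and 4 are the highest samples in all 4 panels.

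The other collagen receptor chains differed little over all 8 samples. Itga1, a collagen receptor chain of smooth muscle and capillaries, was the most even member, with levels of 8.89 to 8.96 in HSRA-S and 8.85 to 8.93 in HSRA-C. Its difference was 0.046, with a 95% interval from -0.073 to 0.16. Itga10, known from cartilage, was at -0.076 (SE 0.075), and Itga11, known from fibroblasts, at 0.061 (SE 0.13). Without HSRA-C replicates 3 and 4, Itga1 was at 0.040, Itga10 at -0.061 and Itga11 at 0.19.

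Chains of the RGD-binding integrins mostly had intervals around 0. Itga5, the alpha chain of the fibronectin receptor, was at 6.56, 6.83, 6.69 and 6.70 in HSRA-S, against 6.70, 6.81, 7.10 and 7.0 in HSRA-C. Control replicates 3 and 4 were again above the rest, and the difference of -0.20 (SE 0.097, 95% interval from -0.42 to 0.011) became -0.057 without them. Itgav, the alpha chain of the vitronectin receptors, was at -0.019 with a 95% interval from -0.26 to 0.22. Of the beta chains that pair with Itgav, Itgb5 was at 0.0064 with an interval from -0.15 to 0.16. Itgb6, known from epithelia and as an activator of TGF-beta, was at 0.0082 with an interval from -0.13 to 0.15. Itgb8, which also activates TGF-beta, was at -0.025 with an interval from -0.32 to 0.27. Itgb5 had a second, dimmer probe set at -0.065 (SE 0.090). Itgb8 was at -0.22 and Itgav at -0.11 without HSRA-C replicates 3 and 4. Itga2b, the platelet fibrinogen receptor chain, was at 0.044 (SE 0.11), and the platelet markers, 5 of 8 tested, had mean log2 levels of 4.38 to 4.59 in HSRA-S and 4.34 to 4.55 in HSRA-C.

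Leukocyte integrin chains were dim, and 4 of the 5 tested lay above 0. Itgax, an alpha chain of dendritic cells and macrophages, had log2 levels of 4.87, 4.73, 4.57 and 4.44 in HSRA-S, against 4.69, 4.44, 4.27 and 4.21 in HSRA-C. The groups overlapped, and the difference was 0.25 (SE 0.12, 95% interval from -0.023 to 0.52). Itgal, the alpha chain of the lymphocyte receptor for ICAM proteins, was at 4.68 to 4.83 in HSRA-S and 4.54 to 4.75 in HSRA-C, a difference of 0.13 (SE 0.066). Itgb2, the beta chain these leukocyte integrins share, was at 0.15 (SE 0.14), and without HSRA-S replicate 2, its highest sample at 5.57, it was at 0.022. Without HSRA-C replicates 3 and 4 Itgb2 was at 0.090. Itgad was at 0.10 (SE 0.064), and Itga4, which leukocytes use to bind VCAM proteins, at -0.10 (SE 0.10). Leaving out single samples put Itga4 between -0.16, without HSRA-S replicate 3, and -0.0080, without HSRA-S replicate 4. Below the filter, Itgam had levels of 3.18 to 3.5 in HSRA-S and 3.07 to 3.22 in HSRA-C, and Itgb7 had 3.17 to 3.34 in HSRA-S and 3.14 to 3.61 in HSRA-C.

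General leukocyte markers, none of them an integrin, were measured beside these chains. Of 20 listed markers 16 were tested, all 16 above 0, where 44.5% of all genes were below 0. At an unadjusted p under 0.05, 8 of 16 (50%) were higher in HSRA-S, against 7.36% of all genes. The 8 were Cd4, Aif1, C1qb, C1qc, Tyrobp, Fcer1g, Laptm5 and Coro1a. Of the markers known from lymphocytes, Cd4 was at 0.50, and Cd3e, Cd8a and Cd79b were at 0.043, 0.077 and 0.091. Their mean log2 level was 5.81, 5.80, 5.71 and 5.41 in HSRA-S replicates 1 to 4, against 5.41, 5.48, 5.41 and 5.22 in HSRA-C, and 0 of 16 passed at an adjusted p. Cd2 and Cd3g, markers of T cells, lay below the filter. Without HSRA-C replicates 3 and 4 there were 4 of 16 (25%) higher at an unadjusted p under 0.05, against 2.68% of all genes, and Itgax was then at 0.086 and Itgal at 0.066. On leaving out 1 sample the count was lowest at 5 of 16, without HSRA-S replicate 1 (against 4.91% of all genes), HSRA-S replicate 2 (6.15%) or HSRA-C replicate 4 (4.5%). It was highest at 12 of 16 without HSRA-S replicate 4, against 8.29%, and was 10 without HSRA-C replicate 2, against 8.58%. Without HSRA-S replicate 4 and HSRA-C replicates 3 and 4 there were 11 of 16, against 4.68%. The part of leukocyte number in the integrin values was not tested.

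The partners of laminins and the ligands of integrins, among them cell surface proteins such as Icam2, lay mostly below 0. Of 32 such genes 29 were tested, 22 below 0 and 7 above, with a median of -0.12, where 44.5% of all genes were below 0. The type IV collagen chains, Col4a1 to Col4a6, lay between -0.096 for Col4a5 and 0.034 for Col4a6. At an unadjusted p under 0.05, 9 of 29 were lower in HSRA-S, against 4.69% of all genes, and 1 was higher, against 7.36%, and 0 passed at an adjusted p. Without HSRA-C replicates 3 and 4 there was 1 lower gene, Icam2, where the background was 2.17%, and 0 higher, where it was 2.68%. Leaving out HSRA-C replicate 3 alone gave 5 lower genes, against 2.52% of all genes, and leaving out HSRA-C replicate 1 gave 15, against 6.3%. Without HSRA-S replicate 4 or HSRA-C replicate 4 there were 6 lower genes, against 4.02% and 2.87%. Smooth muscle and stroma markers were measured beside these genes. Of 12 listed 10 were tested, 8 of 10 below 0, against 44.5% of all genes. At an unadjusted p under 0.05, 4 of 10 were lower, against 4.69%, and 0 passed at an adjusted p. Their mean log2 level ran from 7.47 to 7.77 in HSRA-S and from 7.67 to 7.88 in HSRA-C. The 4 lower genes were Pdgfra at -0.33, Pdgfrb at -0.16, Dcn and Rgs5. Dcn, a proteoglycan of fibroblasts, was at -0.43, and Rgs5, a marker of pericytes, at -0.44. Cnn1 at 0.15 and Myh11 at 0.060 lay above 0. Tagln was at -0.0041, Des at -0.083, Col1a1 at -0.13 and Col3a1 at -0.18. All 10 were named after their values were seen. Without HSRA-C replicates 3 and 4 there were 2 of 10 lower, Dcn and Rgs5, against 2.17% of all genes. The part of stromal RNA in the matrix gene values was not tested.

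Agrn, the heparan sulfate proteoglycan that links laminins to cell surface receptors, had log2 levels of 7.70, 7.63, 7.69 and 7.60 in HSRA-S replicates 1 to 4, against 7.72, 7.93, 8.13 and 8.18 in HSRA-C replicates 1 to 4. The groups did not overlap, although HSRA-C replicate 1 was close to the solitary kidneys. The Agrn difference was -0.34 (SE 0.097, limma adjusted p = 0.331) and -0.17 without HSRA-C replicates 3 and 4. Bcam, a non-integrin receptor for the chain made by Lama5, was at 8.51, 8.47, 8.58 and 8.35 in HSRA-S, against 8.55, 8.78, 9.05 and 9.04 in HSRA-C. Control replicate 1 lay inside the range of the solitary kidneys, and the difference of -0.37 (SE 0.11, adjusted p = 0.331) became -0.19 without the 2 control samples. Fbln1, a matrix protein that binds laminin and fibronectin, was at -0.46 (SE 0.15, adjusted p = 0.338) and at -0.18 without them.

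Icam2, an endothelial counter-receptor of leukocyte integrins, differed about as much with and without the 2 control samples. Its log2 levels were 6.23, 6.04, 6.21 and 6.05 in HSRA-S, against 6.44, 6.39, 6.47 and 6.24 in HSRA-C. The groups did not overlap, the difference was -0.25 (SE 0.075, adjusted p = 0.331), and it was -0.28 without HSRA-C replicates 3 and 4. The endothelial markers given beside Lama4 also lay mostly below 0, and their part in the Icam2 difference was not tested. Tinag, a tubular basement membrane protein that binds laminin and type IV collagen, was the only partner or ligand gene higher at an unadjusted p under 0.05. Its levels were 9.04, 8.92, 8.98 and 9.10 in HSRA-S, against 8.91, 8.85, 8.75 and 8.70 in HSRA-C. The groups did not overlap, and the Tinag difference was 0.21 (SE 0.069, adjusted p = 0.342) and 0.13 without the 2 control samples. The remaining 5 lower genes were named after their values were seen. They were Fn1 (fibronectin) at -0.45, Ltbp1 at -0.32, Hspg2 (perlecan) at -0.30, Vtn (vitronectin) at -0.25 and Npnt, a kidney integrin ligand, at -0.23. Without HSRA-C replicates 3 and 4, Fn1 was at -0.21, Ltbp1 at -0.11, Hspg2 at -0.12, Vtn at -0.20 and Npnt at -0.15. Ltbp1 was at -0.21 without HSRA-S replicate 4, its lowest sample.

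**Figure D5:**
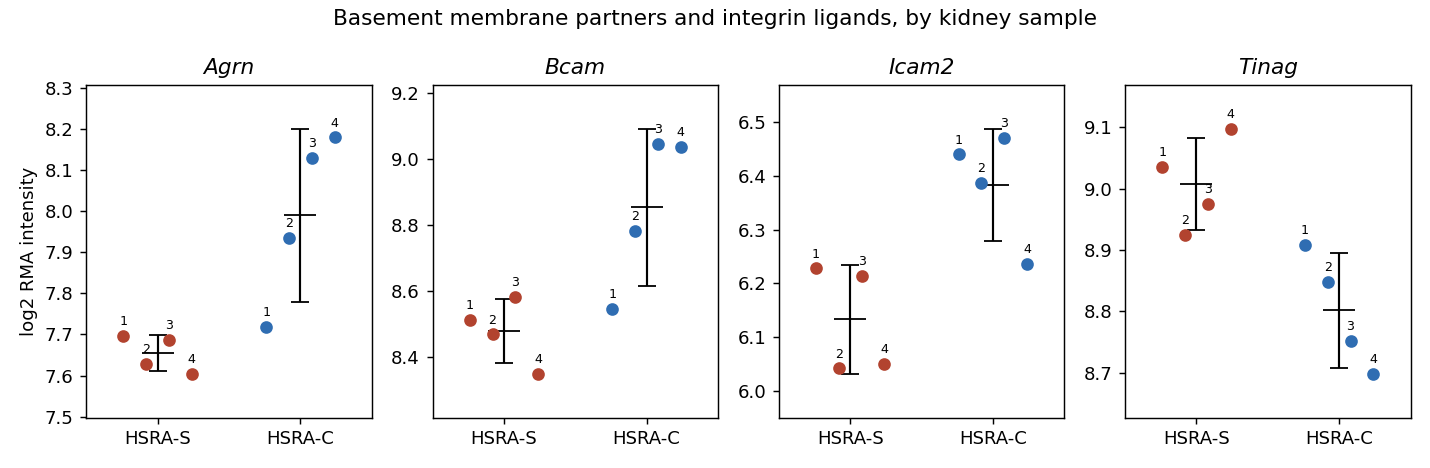
Each panel shows a gene, with the log2 RMA intensity on the vertical axis and the 4 HSRA-S and 4 HSRA-C samples as points numbered by replicate; horizontal marks are group means and bars are 1 SD. The axes differ between panels and do not start at 0. The groups of Agrn, Icam2 and Tinag do not overlap, and in Bcam HSRA-C replicate 1 lies among the HSRA-S samples.

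Genes of integrin partners, among them talins, kindlins and focal adhesion kinases inside the cell and Cd151, Cd9 and Cd47 at its surface, lay on both sides of 0. Of 31 listed and tested genes 15 were above and 16 below 0, with a median of -0.032. At an unadjusted p under 0.05, 1 of 31 was higher in HSRA-S, against 7.36% of all genes, and 0 were lower, against 4.69%, and 0 passed at an adjusted p. The higher gene was Lims2, an adaptor that joins integrin-linked kinase to the cytoskeleton. Its levels were 8.16, 7.91, 7.79 and 8.15 in HSRA-S, against 7.86, 7.82, 7.58 and 7.62 in HSRA-C, so that the groups overlapped. The Lims2 difference was 0.28 (SE 0.10, adjusted p = 0.358) and 0.16 without HSRA-C replicates 3 and 4. Single samples moved these counts to 0 higher genes (without HSRA-S replicate 1 or HSRA-C replicate 3 or 4), to 2 higher (without HSRA-S replicate 2), and to 1 lower (without HSRA-S replicate 1 or 4 or HSRA-C replicate 4), 2 lower (without HSRA-C replicate 2) or 3 lower (without HSRA-C replicate 1). In these fits 4.5% to 8.58% of all genes were higher and 2.52% to 6.3% lower.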

How the data were processed

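Kidney RNA of 8 rats was measured on 1 array per sample. The values deposited by the authors are linear RMA intensities between 2.12 and 9259, and the median of an array lay between 30.8 and 32.3. RMA is named per the submitters' processing notes, without its software. This method makes the arrays' distributions alike and compresses dim values. The log2 of each intensity was taken with no pseudocount.

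Of 29214 probe sets, 18644 carried exactly 1 gene symbol in the platform annotation, and all 32 member genes matched RefSeq by gene ID. The brightest probe set was taken per gene, the dimmest 20% of 17245 genes (log2 mean under 3.63) were left out, and the remaining 13796 were fitted with limma 3.58.1 (lmFit, eBayes, group as the only term, R 4.3.3) with Benjamini-Hochberg adjustment. Each difference is the HSRA-S mean minus the HSRA-C mean, and intervals are 95%. The steps were tested on simulated data with independent noise per gene and planted differences larger than that of any member. The simulation held no shift shared by many genes in single samples. It therefore does not cover such shifts or differences as small as those of the members.

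The members, gene lists and alternatives were chosen with earlier results of these data known. All members are named. Of the partner and adaptor lists, the rule named up to 4 genes of smallest p per direction at an unadjusted p under 0.05. Slc14a2 and Aqp4 were named as medulla markers. Further genes of the lists were named after their values were seen. P-values set each difference between the groups against the spread of samples within the groups, as moderated by limma. With 8 arrays, their number limits the precision. Deviations of samples with the same replicate number correlated at -0.068, 0.070, 0.13 and -0.11, so the numbers were not taken as pairs.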

Additional observations from a re-analysis of the deposited data

Results flagged for a closer look

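Of 86 sets of 4 values examined (30 tested members and 13 further named genes in both groups), 2 held a sample far from the other 3, where chance gives about 1 in 20. Both samples were HSRA-S replicate 4. Slc14a2 was there at a log2 level of 4.44, against 6.85 to 7.22 in the other HSRA-S samples. Ltbp1, a carrier of latent TGF-beta, was there at 6.46, against 6.83 to 6.90 in the other HSRA-S samples. No integrin or laminin gene held such a sample.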

How the results depend on the processing

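The number of members at an adjusted p under 0.05 was 0 under every alternative run: no filter, the dimmest 50% left out, the mean over probe sets, a second quantile normalization, log2(value + 16), an intensity trend with robust fitting, the replicate block, each sample left out, both HSRA-C replicates 3 and 4 left out, these and HSRA-S replicate 4 left out (chosen after seeing the data), and the covariate. The count of 3 members at an unadjusted p under 0.05 (12.1% of all genes) became 5 with quantile normalization (12.3%), log2(value + 16) (12.6%) or trend (12.5%), 6 with the replicate block (11.5%; Itga5, Itgax and Lamb3 besides the 3), 1 with the covariate (8.13%; Itga6), 0 without HSRA-C replicates 3 and 4 (4.85%) and 0 without these and HSRA-S replicate 4 (7.26%). It ran from 2 (without HSRA-C replicate 4, 7.37%) to 12 (without HSRA-C replicate 1, 14.1%) on leaving out 1 sample. The 2 members whose groups did not overlap (6.29% of all genes) became 4 with quantile normalization (6.61%), 4 without the 3 samples (23.9%), and 2 to 6 on leaving out 1 sample, 6 without HSRA-S replicate 3 (11.3%) or HSRA-C replicate 1 (12.5%). Leaving out samples cannot make groups overlap, so the counts with samples left out could not fall under 2. The labels do not say that replicate numbers mark shared litters or days, and the block is given for completeness.

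Of 762 recomputed gene differences, 713 kept their direction and 49 turned, in 13 genes. Itgb5 turned to -0.029 with the mean over probe sets and to -0.015 with quantile normalization, and Itgb6 to -0.025 with that normalization. Without HSRA-C replicates 3 and 4, Itga2 was at 0.19, Itga2b at -0.079, Itgb1 at 0.071, Itgb6 at -0.0074, Lama3 at 0.056, Lamb3 at 0.12, Slc14a2 at 0.17 and Aqp4 at 0.084. Without HSRA-S replicate 4 as well, Itga2 was at 0.30, Itga2b at -0.15, Itga4 at 0.063, Itgb1 at 0.11, Itgb6 at -0.034, Lama3 at 0.058, Lamb3 at 0.019, Slc14a2 at 0.82 and Aqp4 at 0.41. With the covariate, Itga2 was at 0.13, Itga2b at -0.12, Itga4 at 0.039, Itgav at 0.014, Itgb1 at 0.077, Itgb6 at -0.036, Lama3 at 0.012, Slc14a2 at 0.39 and Aqp4 at 0.26. Slc14a2 and Aqp4 form part of that covariate. On leaving out 1 sample, differences ran from -0.022 to 0.035 for Itgb5, -0.018 to 0.036 for Itgb6, -0.11 to 0.082 for Itgb8, -0.032 to 0.16 for Itga11, -0.023 to 0.13 for Itga2b, -0.079 to 0.062 for Itgav and -0.078 to 0.0048 for Itgb1. The cause was not tested.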
